A study of Mus musculus with 4 samples.

Results

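The cells described here were CD8 T cells from mouse melanoma tumours whose transcripts included Tcf7 and Pdcd1 but not Havcr2. Single-cell RNA sequencing with the 10x Genomics 5′ kit counted unique molecular identifiers (UMIs), each standing for 1 captured RNA molecule. A barcode was a member when it held at least 500 genes and at most 10% of its UMIs from mitochondrial genes, at least 1 UMI of Tcf7, at least 1 UMI of Pdcd1, 0 UMIs of Havcr2, and at most 1 UMI in all of the cycling genes Mki67, Top2a, Birc5 and Ube2c. The members were thus selected on their measured UMIs of these 7 genes. By this gate 2130 of 38316 filtered cells were members, which is 5.56%. They are called gated cells below, and their working label was progenitor exhausted-like.

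The study compared CD8 T cells from B16F10 tumours labelled sgScr with those from B16F10 tumours labelled sgArid1a, and its title concerns ARID1A, R-loops and the STING and type I interferon pathway in immunity to tumours. B16F10 is an established melanoma line of C57BL/6 origin, and Arid1a encodes a subunit of SWI/SNF, a complex that moves nucleosomes and binds DNA. All mice were C57BL/6J and 6 to 8 weeks old, and each group had 2 samples. The labels leave unsaid in which cells the guide was, whether the guide hit 1 clone or a pool, or whether the 2 samples of a group came from separate animals. Tumours were digested with Liberase and DNase I, and live CD45+ CD3+ CD8+ cells were sorted. P-values therefore cover only sample-to-sample spread in this series, and part of it may be technical.

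Progenitor exhausted T cells are a self-renewing group of antigen-experienced CD8 T cells that arises in chronic infection and in tumours. TCF1, the product of Tcf7, is the transcription factor they need, and PD-1, the product of Pdcd1, is an inhibitory receptor that marks contact with antigen. Their progeny lose TCF1, gain TIM-3 (Havcr2) and granzymes, and respond poorly to later stimulation. Tcf7 is also high in naive and central memory T cells, so a cell with both transcripts can be a progenitor exhausted cell, a recently activated cell, or a naive cell with stray RNA. In the genome of the C57BL/6J reference (build GRCm38, GENCODE M21 gene models), Tcf7 lies on the minus strand of chromosome 11 from base 52252371 to base 52283014, and Pdcd1 on the minus strand of chromosome 1 from base 94038305 to base 94052553.

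Barcodes numbered 7859, 7376, 11153 and 13085 in the 4 libraries, which held between 32484099 and 81916795 UMIs. Pairs of libraries shared between 78 and 231 barcodes. Depth stood apart in 1 library: the median filtered cell held 2407 UMIs in sgArid1a sample 1, against 3751 and 3603 in sgScr and 4027 in sgArid1a sample 2. The gated cells' summed counts came to 1940192, 1867248, 1625043 and 4930504 UMIs in sgScr 1, sgScr 2, sgArid1a 1 and sgArid1a 2, and values below are given in this order. Within a group the gated sums differed by more than counting noise, with chi-square per degree of freedom of 1.41 in sgScr and 2.45 in sgArid1a.

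The gate held 406, 375, 442 and 907 cells in the 4 samples. As a share of filtered cells this was 5.31% (95% Wilson interval 4.83 to 5.84), 5.23% (4.74 to 5.77), 4.13% (3.77 to 4.52) and 7.09% (6.66 to 7.55), where the intervals cover counting error only. The sgArid1a samples lay on both sides of the sgScr samples, so the groups overlapped. The mean was 5.27% ± 0.0559 (SD, n = 2) in sgScr and 5.61% ± 2.10 (SD, n = 2) in sgArid1a. Because the gate reads single UMIs, the share follows depth. With every cell thinned to 3000 UMIs the shares were 3.55%, 3.57%, 3.78% and 4.86%, and with 2000 UMIs they were 2.70%, 2.95%, 2.62% and 3.50%. At 3000 UMIs both sgArid1a samples lay above both sgScr samples, and at 2000 UMIs they lay on both sides. Thinning to 2000 UMIs left out 548, 651, 3929 and 1050 shallower cells, most of them in sgArid1a sample 1. Thinning to 3000 UMIs left out 2243, 2373, 6792 and 3753. In sgArid1a sample 1 the cells kept at 3000 UMIs held Tcf7 in 28.3% and Pdcd1 in 45.1%, against 41.2% and 28.4% of its filtered cells.

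The separate conditions of the gate were met by different shares of cells. Tcf7 was detected in 71.3%, 70.7%, 41.2% and 56.6% of filtered cells, and Pdcd1 in 16.5%, 17.2%, 28.4% and 34.2%. Both sgArid1a samples were lower for Tcf7 and higher for Pdcd1. Among Tcf7-positive cells, 9.30%, 9.35%, 14.4% and 20.3% also held a Pdcd1 UMI. The condition on Havcr2 then removed 52, 51, 87 and 323 cells, and the condition on cycling genes another 49, 48, 106 and 238. These values chose the cells and are given as a description.

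**Figure D1:**
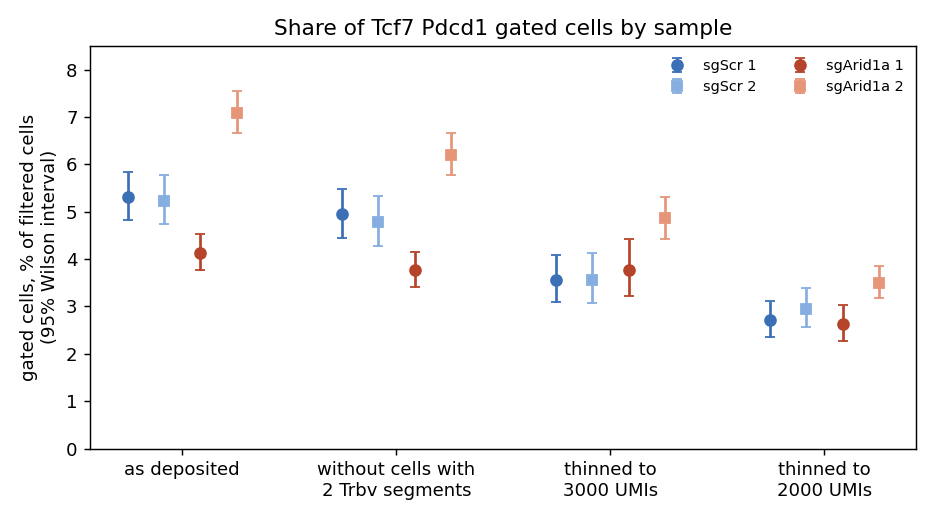
Gated cells as a share of filtered cells in each of the 4 samples, in percent, as deposited, without cells with 2 Trbv segments, and with every cell thinned to 3000 or 2000 UMIs; each point is 1 sample and its bar the 95% Wilson interval. As deposited the shares run from 4.13% to 7.09%, with both extremes in sgArid1a, and thinning brings all 4 samples between 2.62% and 4.86%.

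Stray RNA can place a UMI in a cell that does not express the gene. Barcodes of non-T cells numbered 2, 0, 3 and 3, too few to set a background, and 0 of these 8 held a Pdcd1 UMI. Tcf7-positive cells with a UMI of both Ccr7 and Lef1, genes of naive T cells, which mostly lack Pdcd1, gave a rougher background that was chosen after the data were seen. Of them 4.26%, 4.73%, 9.47% and 14.3% held a Pdcd1 UMI, at medians of 4026, 3845, 2704.5 and 4150 UMIs per cell. Of the other Tcf7-positive cells 15.6%, 14.5%, 15.9% and 24.0% held one, at medians of 3484, 3367, 2284 and 3753 UMIs. With cells thinned to 2000 UMIs the shares were 1.31%, 2.0%, 2.86% and 2.77% against 7.16%, 7.41%, 9.62% and 12.2%. The share was thus lower in the Ccr7 Lef1 cells of each sample at either depth. In the Ccr7 Lef1 cells it was higher in both sgArid1a samples than in both sgScr samples, unthinned and thinned. These Ccr7 Lef1 cells made up 21.9%, 24%, 16.3% and 21.1% of the gate. How many of them hold Pdcd1 through stray RNA was not tested.

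More gated than Tcf7-only cells held 2 T cell receptor beta variable (Trbv) segments, each with at least 2 UMIs, as can happen when 2 cells share a droplet. Such cells were 17.2%, 18.4%, 14.9% and 24.0% of the gate and 9.96%, 9.42%, 6.42% and 11.3% of Tcf7-positive cells without Pdcd1. They were 18.4%, 16.4%, 3.92% and 8.98% of Pdcd1 Havcr2 cells. Without them the gate held 4.95%, 4.77%, 3.76% and 6.20% of cells. The results below were recomputed without these cells wherever they are said to be.

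Cell type markers placed the gated cells among CD8 T cells. The 7 CD8 T cell markers, Cd3d, Cd3e, Cd3g, Cd8a, Cd8b1, Trac and Trbc2, summed to between 5854 and 6509 UMIs per 1e+06 UMIs of the sum (CPM), and all were detected in every sample. Melanoma genes summed to between 0.515 and 1.22 CPM, with Tyr at 0 in every sample. Macrophage genes summed to between 21.1 and 26.0 CPM, nearly all of it Cd68, and Adgre1 was at 0 in all samples. B cell genes summed to between 187 and 209 CPM, most of it Ighm, and Cd74 made up most of the MHC class II sum of 83.5 to 155 CPM. Natural killer cell genes summed to 9.28, 16.1, 18.5 and 35.7 CPM, CD4 and regulatory T cell genes to between 7.73 and 12.3 CPM, and gamma-delta T cell genes to between 1.55 and 7.38 CPM. Between groups, Fcer1g (1.57 ± 0.33) and Cd74 (0.50 ± 0.14) were called higher in sgArid1a and Igkc (-0.71 ± 0.19) lower. The part of these transcripts in the results was not tested.

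To describe what the gate selects beyond its own genes, UMIs were summed per sample over the gated cells and over 2 neighbouring classes. Tcf7-only cells met the same rule with Pdcd1 at 0, and numbered 4892, 4532, 3690 and 5647. Pdcd1 Havcr2 cells had Tcf7 at 0 and at least 1 UMI each of Pdcd1 and Havcr2 under the same limit on cycling genes, and numbered 163, 152, 332 and 501. Their median depth was 7043, 6695, 5265.5 and 7925 UMIs, against 4036, 4006, 2919 and 4425 in the gated cells. Each class was compared with the gated cells within samples by edgeR's quasi-likelihood test with Benjamini-Hochberg adjustment over all genes tested, and a gene was called at an adjusted p under 0.05. Differences are log2 fold changes, gated minus other, with their standard errors over 4 sample pairs, and the 7 genes of the rule were left out of the calls. Both comparisons use the same gated sums, so their values are set side by side and were not combined.

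Against Tcf7-only cells, 1866 of 10419 genes tested were higher in gated cells (17.9% of genes) and 1576 were lower (15.1%), which together is 33%. Against Pdcd1 Havcr2 cells, 1914 of 8762 genes were higher (21.8%) and 2047 were lower (23.4%), together 45.2%. The median of all genes was near 0 in both, at -0.0037 and 0.0063. Gated cells lay on the same side in every sample for 49.4% of genes tested against Tcf7-only cells and 53.6% against Pdcd1 Havcr2 cells.

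Cells at the edge of each condition show that the separation differed between genes. Gated cells with exactly 1 Pdcd1 UMI held 42.4, 44.8, 72.4 and 53.2 CPM of Tox. Cells just outside with 0 Pdcd1 UMIs held 28.8, 29.6, 28.1 and 28.9 CPM. At this same edge Slamf6 was at 111, 131, 126 and 101 CPM inside and at 124, 133, 93.6 and 83.8 CPM outside. It was thus lower inside in both sgScr samples and higher inside in both sgArid1a samples. Gated cells with exactly 1 Tcf7 UMI held 44.4, 141, 136 and 162 CPM of Gzmb, and cells just outside with 0 Tcf7 UMIs held 252, 247, 499 and 482 CPM. Cells just outside by 1 Havcr2 UMI numbered only 17, 16, 11 and 49, and their median depth lay between 7161 and 9468 UMIs.

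The progenitor exhausted list held 14 genes other than those of the rule. Against Tcf7-only cells 7 of 14 genes were higher and 5 lower (median 0.31), and against Pdcd1 Havcr2 cells 11 of 13 were higher and 0 lower (median 2.71). Slamf6, which encodes the SLAM family receptor used to sort progenitor exhausted cells, was at 147, 165, 119 and 135 CPM in gated cells. It was at 124, 133, 93.6 and 83.8 CPM in Tcf7-only cells and at 31.5, 37.7, 11.7 and 16.3 CPM in Pdcd1 Havcr2 cells. The gated cells were the highest of the 3 classes in every sample. The differences were 0.27 ± 0.07 (adjusted p = 0.0052) and 2.71 ± 0.14 (adjusted p = 1.9e-10), and the first was lost without sgArid1a sample 2 (0.13, adjusted p = 0.17) and with cells thinned (0.15, adjusted p = 0.46).

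Id3, an inhibitor of E proteins that is paired with long-lived T cell states, was at 70.6, 68.5, 84.9 and 97.2 CPM in gated cells. It was at 37.4, 37.9, 72.9 and 81.0 CPM in Tcf7-only cells and between 0.788 and 3.42 CPM in Pdcd1 Havcr2 cells. The differences were 0.35 ± 0.09 (adjusted p = 0.0063) and 5.42 ± 0.21 (adjusted p = 4.8e-12). The first was lost without sgScr sample 1 (0.25, adjusted p = 0.052) and with cells thinned (0.14, adjusted p = 0.64). Cd200, an immune regulatory ligand, was at 17.0, 18.7, 24.0 and 22.1 CPM in gated cells against 1.47, 2.86, 3.33 and 2.16 CPM in Tcf7-only cells. Its difference was 2.97 ± 0.18 (adjusted p = 9.9e-11), and against Pdcd1 Havcr2 cells it was 0.14 ± 0.15 (adjusted p = 0.50). Myb, a transcription factor of stem-like T cells, differed by 0.51 ± 0.10 and by 2.77 ± 0.27, both called.

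Members of the list shared with naive cells went the other way against Tcf7-only cells. Il7r, the interleukin-7 receptor alpha chain, was at 831, 770, 490 and 495 CPM in gated cells, 991, 942, 653 and 585 CPM in Tcf7-only cells and between 13.8 and 39.4 CPM in Pdcd1 Havcr2 cells. The gated cells lay below Tcf7-only cells in all 4 samples (-0.45 ± 0.04, adjusted p = 1.6e-08), a call that was lost with cells thinned (-0.15, adjusted p = 0.15). They lay above Pdcd1 Havcr2 cells by 4.80 ± 0.11 (adjusted p = 2.8e-14). Lef1, the transcription factor that works beside TCF1, was lower than in Tcf7-only cells by -1.27 ± 0.06 and higher than in Pdcd1 Havcr2 cells by 3.06 ± 0.19. Cxcr5, the follicular homing receptor of progenitor exhausted cells in chronic infection, was low everywhere. It was at 13.4, 11.8, 11.7 and 12.6 CPM in gated cells, between 8.76 and 10.6 CPM in Tcf7-only cells (adjusted p = 0.18), and at 0.788, 1.71, 0 and 0 CPM in Pdcd1 Havcr2 cells.

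Naive and homing genes were lower in gated cells than in Tcf7-only cells for 11 of 12 members and higher for none (median -1.02), and higher than in Pdcd1 Havcr2 cells for 11 of 11 (median 4.04). Ccr7, the chemokine receptor for entry into lymph nodes, was at 232, 277, 235 and 206 CPM in gated cells. It was at 559, 548, 329 and 376 CPM in Tcf7-only cells and at 90.7, 63.3, 27.8 and 27.1 CPM in Pdcd1 Havcr2 cells. The 3 classes did not overlap, with differences of -1.07 ± 0.08 and 2.38 ± 0.18. Klf2, a transcription factor of quiescence and recirculation that keeps S1pr1 on, was at 405, 388, 252 and 368 CPM in gated cells against 878, 865, 546 and 678 CPM in Tcf7-only cells (-1.21 ± 0.05). The fall of largest size by the naming rule was Igfbp4, a gene of naive T cells, at -2.45 ± 0.08.

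**Figure D2:**
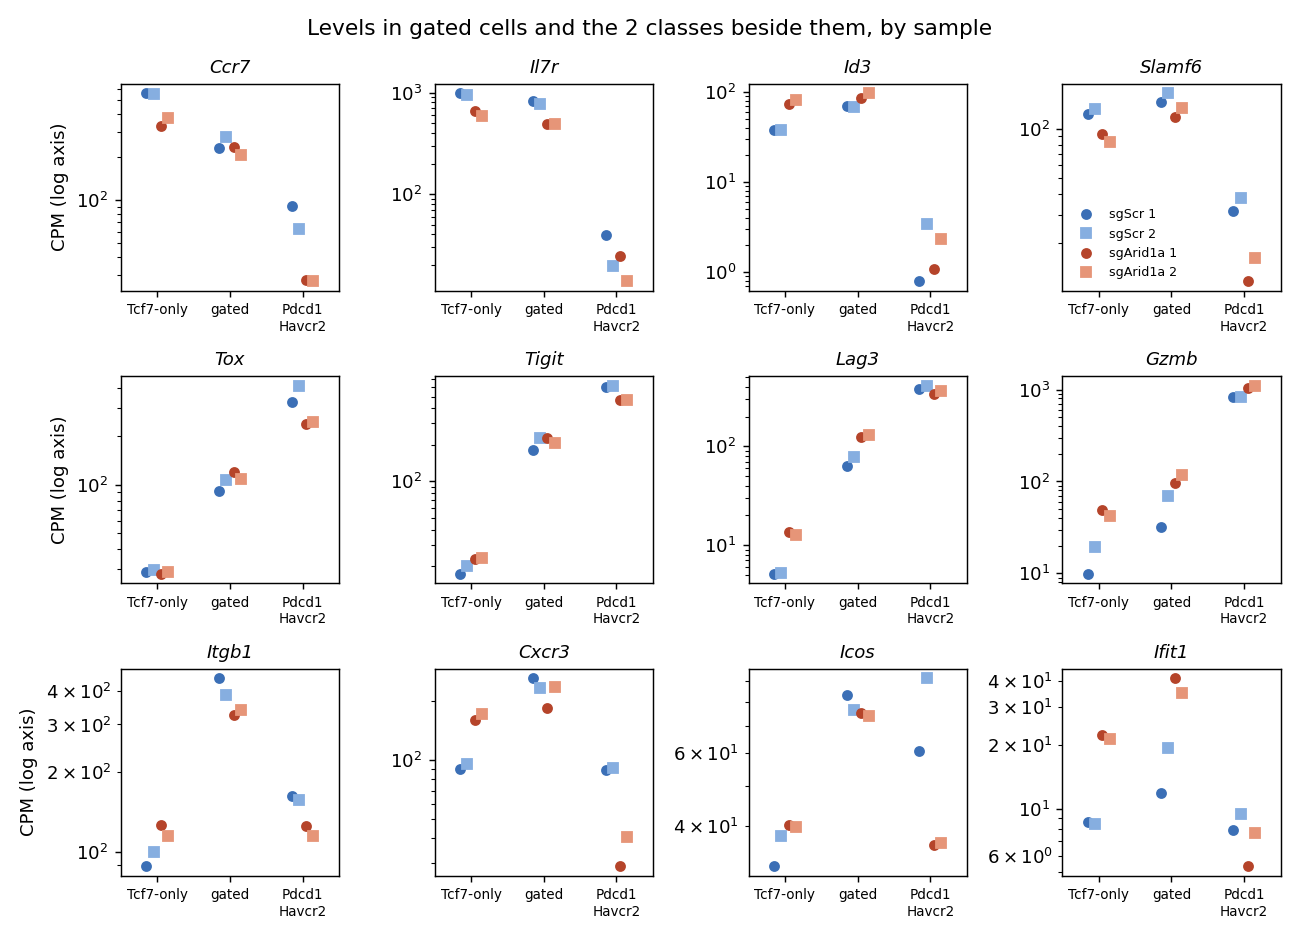
Level of 12 genes in CPM, on log axes that differ between panels, in Tcf7-only cells, gated cells and Pdcd1 Havcr2 cells; each point is 1 of the 4 samples. Ccr7 lies between 329 and 559 CPM in Tcf7-only cells and between 206 and 277 CPM in gated cells, and Tigit runs the opposite way.

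Inhibitory receptor and exhaustion genes were higher than in Tcf7-only cells for all 14 members tested (median 2.03), and 13 of 14 were lower than in Pdcd1 Havcr2 cells with 0 higher (median -1.58). Pdcd1 itself is in the rule, so the listed genes are other receptors and factors. Tox, the transcription factor that fixes the exhausted chromatin state, was at 91.7, 107, 121 and 109 CPM in gated cells. Tcf7-only cells held 28.8, 29.6, 28.1 and 28.9 CPM and Pdcd1 Havcr2 cells 326, 412, 237 and 244 CPM. The classes did not overlap, with differences of 1.73 ± 0.07 (adjusted p = 3.2e-13) and -1.44 ± 0.12 (adjusted p = 3.8e-08).

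Lag3 and Tigit encode inhibitory receptors that act beside PD-1. Lag3 was at 63.4, 77.7, 123 and 129 CPM in gated cells, between 5.12 and 13.5 CPM in Tcf7-only cells and between 341 and 413 CPM in Pdcd1 Havcr2 cells (3.31 ± 0.09 and -1.89 ± 0.14). Tigit was at 180, 228, 230 and 209 CPM in gated cells, with differences of 3.17 ± 0.06 and -1.31 ± 0.08. Entpd1, the ectoenzyme CD39 found on terminally exhausted cells, was between 6.15 and 9.64 CPM in gated cells and between 67.5 and 95 CPM in Pdcd1 Havcr2 cells. Ctla4 differed by 2.08 ± 0.12 and -0.43 ± 0.10, both called.

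Of 16 cytotoxic genes tested against Pdcd1 Havcr2 cells 9 were lower and 3 higher (median -0.51), and against Tcf7-only cells 11 of 15 were higher and 1 lower (median 0.57). Gzmb, granzyme B, was at 32.0, 70.2, 95.4 and 118 CPM in gated cells, 9.89, 19.6, 48.5 and 42.5 CPM in Tcf7-only cells, and between 830 and 1105 CPM in Pdcd1 Havcr2 cells. The gated cells lay between the other classes in each sample, with differences of 1.30 ± 0.10 and -3.59 ± 0.13. Perforin, Prf1, was at 52.1, 45.5, 84.9 and 63.5 CPM against 408 to 616 CPM in Pdcd1 Havcr2 cells. Granzymes C, E and F were near 0 in gated cells: Gzmc was at 1.03, 2.68, 0 and 7.71 CPM, against 37.1, 47.1, 209 and 659 CPM in Pdcd1 Havcr2 cells. Granzyme genes lie in a cluster of close relatives, so reads may be split between them. Gzmk, the granzyme of early memory and pre-exhausted cells, was at 260, 204, 150 and 155 CPM in gated cells and between 32.3 and 50.8 CPM in Tcf7-only cells (2.0 ± 0.14, adjusted p = 7.0e-10). Pdcd1 Havcr2 cells held 453, 494, 160 and 181 CPM of it, above the gated cells in every sample (-0.60 ± 0.13, adjusted p = 0.0011).

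Chemokines and cytokines were higher than in Tcf7-only cells for 11 of 12 members and lower for none (median 1.76), and against Pdcd1 Havcr2 cells 2 of 12 were higher and 6 lower (median -0.84). Xcl1, the chemokine that attracts cross-presenting dendritic cells, was at 175, 317, 717 and 342 CPM in gated cells. Tcf7-only cells held 37.4, 49.9, 117 and 113 CPM and Pdcd1 Havcr2 cells 158, 232, 657 and 1174 CPM. The first difference was 2.09 ± 0.11 (adjusted p = 1.6e-11) and the second -0.37 ± 0.25 (adjusted p = 0.25), with the order of classes differing between samples. Without sgArid1a sample 2 the second turned to 0.26 (adjusted p = 0.022). With cells thinned to 2000 UMIs, an Xcl1 UMI was found in 6.25%, 15.6%, 24.2% and 22.4% of gated cells and in 2.61%, 2.56%, 11.1% and 8.85% of Tcf7-only cells. Ccl3 and Ccl4, inflammatory chemokines with close relatives in the genome, were far lower than in Pdcd1 Havcr2 cells, at -4.60 ± 0.24 and -3.74 ± 0.16. Ifng, the effector cytokine, was at 16.5, 17.1, 52.3 and 32.2 CPM in gated cells and between 146 and 537 CPM in Pdcd1 Havcr2 cells (-3.34 ± 0.19).

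The genes with the largest rises over Tcf7-only cells were Nrgn, Tnfrsf4, Nrn1, Ccl1, Rgs16 and Cd81. Nrgn, a calmodulin-binding protein best known from neurons, was at 43.3, 95.3, 208 and 178 CPM in gated cells and between 1.37 and 7.51 CPM in Tcf7-only cells (4.79 ± 0.09). Tnfrsf4, the costimulatory receptor OX40, was at 94.3, 131, 151 and 147 CPM against 2.74 to 7.30 CPM (4.61 ± 0.09). Nrn1, neuritin, was at 71.6, 67.5, 99.1 and 112 CPM against 1.73 to 5.37 CPM (4.45 ± 0.14). Of 14 early genes induced by T cell receptor signals, a list that holds Tnfrsf4, 9 were higher and 2 lower than in Tcf7-only cells (median 0.85). Against Pdcd1 Havcr2 cells 1 of 13 was higher and 8 were lower (median -0.45). Tnfrsf4 was among the lower, as was Rgs16 in its own list.

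Against Pdcd1 Havcr2 cells the largest rises included Dapl1, Id3, Nsg2, Aff3 and Il7r, and the largest falls Gzme, Gzmc, Gzmf, Cdkn2a, Spp1 and Ccl3. Dapl1, a gene of naive and stem-like T cells, was at 116, 154, 229 and 172 CPM in gated cells and between 2.14 and 5.52 CPM in Pdcd1 Havcr2 cells (5.75 ± 0.19). Spp1, osteopontin, was at 1.03, 3.75, 9.23 and 6.29 CPM in gated cells and between 83.0 and 184 CPM in Pdcd1 Havcr2 cells (-4.68 ± 0.23).

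Lineage transcription factors split. Against Tcf7-only cells 8 of 12 were higher and 3 lower (median 0.75), and against Pdcd1 Havcr2 cells 4 of 11 were higher and 5 lower (median -0.02). Eomes, the T-box factor of memory and exhausted cells, was at 64.9, 67.5, 70.8 and 61.9 CPM in gated cells, and between 25.9 and 36.4 CPM in Tcf7-only cells (0.84 ± 0.08). Pdcd1 Havcr2 cells held 119, 119, 41.1 and 37.6 CPM of it, above the gated cells in sgScr and below them in sgArid1a. Prdm1, which encodes the terminal differentiation factor Blimp-1, was between 6.15 and 8.03 CPM in gated cells and between 31.0 and 57.4 CPM in Pdcd1 Havcr2 cells (-2.50 ± 0.16). Satb1, a chromatin organiser that is high in naive cells, was lower than in Tcf7-only cells by -1.59 ± 0.06 and higher than in Pdcd1 Havcr2 cells by 3.16.

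Metabolic and replication genes were intermediate. All 16 glycolysis genes tested were higher than in Tcf7-only cells (median 0.50), and all 15 tested were lower than in Pdcd1 Havcr2 cells (median -0.87). S phase genes were higher than in Tcf7-only cells for 12 of 19 and lower for 2 (median 0.41), and lower than in Pdcd1 Havcr2 cells for 17 of 18 (median -1.09). The rule limits mitotic genes in all 3 classes but holds no S phase gene. Quiescence genes, which restrain growth, were lower than in Tcf7-only cells for 7 of 10 and higher for 1 (median -0.30), and higher than in Pdcd1 Havcr2 cells for 8 of 10 (median 0.97). Heat shock and dissociation genes were higher than in Tcf7-only cells for 2 of 18 and lower for 12 (median -0.21), and against Pdcd1 Havcr2 cells 7 of 18 were higher and 5 lower (median 0.18).

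Of the type I interferon-stimulated genes 11 of 29 were higher and 1 lower than in Tcf7-only cells (median 0.17), and 18 of 25 were higher and 1 lower than in Pdcd1 Havcr2 cells (median 0.66). Interferon-gamma response genes were higher than in Tcf7-only cells for 4 of 22 and lower for 9 (median -0.11), and against Pdcd1 Havcr2 cells 10 of 21 were higher and 2 lower (median 0.35). STING and interferon signalling components were higher for 2 of 13 and lower for 3 against Tcf7-only cells (median 0.04). Against Pdcd1 Havcr2 cells 6 of 12 were higher and 1 lower (median 0.31). Of all genes tested, 17.9% were higher and 15.1% lower than in Tcf7-only cells, and 21.8% and 23.4% than in Pdcd1 Havcr2 cells. The 4 of 22 and the 2 of 13 lay near the first of these shares.

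Among chemokine receptors and integrins, 8 of 12 were higher and 3 lower than in Tcf7-only cells (median 0.70), and 6 of 10 were higher and 2 lower than in Pdcd1 Havcr2 cells (median 0.60). Itgb1, the integrin beta 1 chain, was at 447, 387, 325 and 341 CPM in gated cells, 88.7, 100, 127 and 115 CPM in Tcf7-only cells, and 162, 157, 125 and 115 CPM in Pdcd1 Havcr2 cells (1.65 ± 0.09 and 1.45 ± 0.06). Cxcr3, the receptor for interferon-induced chemokines, was at 261, 233, 185 and 234 CPM in gated cells against 90.5 to 170 CPM and 28.8 to 90.7 CPM in the other classes (0.70 ± 0.13 and 2.05 ± 0.15). The costimulatory receptors Icos (0.89 ± 0.08 and 0.62 ± 0.16) and Cd28 (0.63 ± 0.06 and 0.52 ± 0.07) were also called in both comparisons. Car2, carbonic anhydrase 2, was chosen after its values were seen: it was at 48.4, 41.8, 42.5 and 49.7 CPM in gated cells, between 8.78 and 14.7 CPM in Tcf7-only cells and between 2.67 and 12.6 CPM in Pdcd1 Havcr2 cells. Tbc1d4 and Ramp3, chosen in the same way, ran alike, with Tbc1d4 at 47.9, 48.2, 52.9 and 44.0 CPM in gated cells and at most 30.7 CPM in the others.

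The gated cells were not uniform. They were divided by their Pdcd1 UMIs into cells with 1, with 2, and with 3 or more, which numbered 199, 79 and 128 in sgScr 1, 186, 70 and 119 in sgScr 2, 248, 84 and 110 in sgArid1a 1, and 397, 180 and 330 in sgArid1a 2. The number of UMIs also follows depth, with medians of 2356 to 4065 UMIs per cell at 1 Pdcd1 UMI and 4295 to 5971 at 3 or more, so these values are a description. Tox in the 3 bins went from 42.4 to 119 to 146 CPM in sgScr 1, 44.8 to 124 to 164 in sgScr 2, 72.4 to 76.9 to 196 in sgArid1a 1, and 53.2 to 93.6 to 160 in sgArid1a 2. Every sample had its highest Tox level at 3 or more Pdcd1 UMIs.

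Other genes followed Pdcd1 in the same direction or against it. Tigit was between 80.7 and 104 CPM at 1 Pdcd1 UMI and between 328 and 393 CPM at 3 or more, and Lag3 was between 32.0 and 78.7 CPM and between 96.3 and 198 CPM. Tnfrsf4 was between 24.3 and 44.9 CPM at 1 UMI and between 217 and 282 CPM at 3 or more. Cd200 was between 2.56 and 12.2 CPM at 1 UMI and between 35.3 and 46.7 CPM at 3 or more. Klf2 was between 356 and 558 CPM at 1 UMI and between 101 and 283 CPM at 3 or more. Slamf6 was higher at 3 or more UMIs than at 1 in 3 samples and lower in sgArid1a 1, at 126 and 96.6 CPM.

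**Figure D3:**
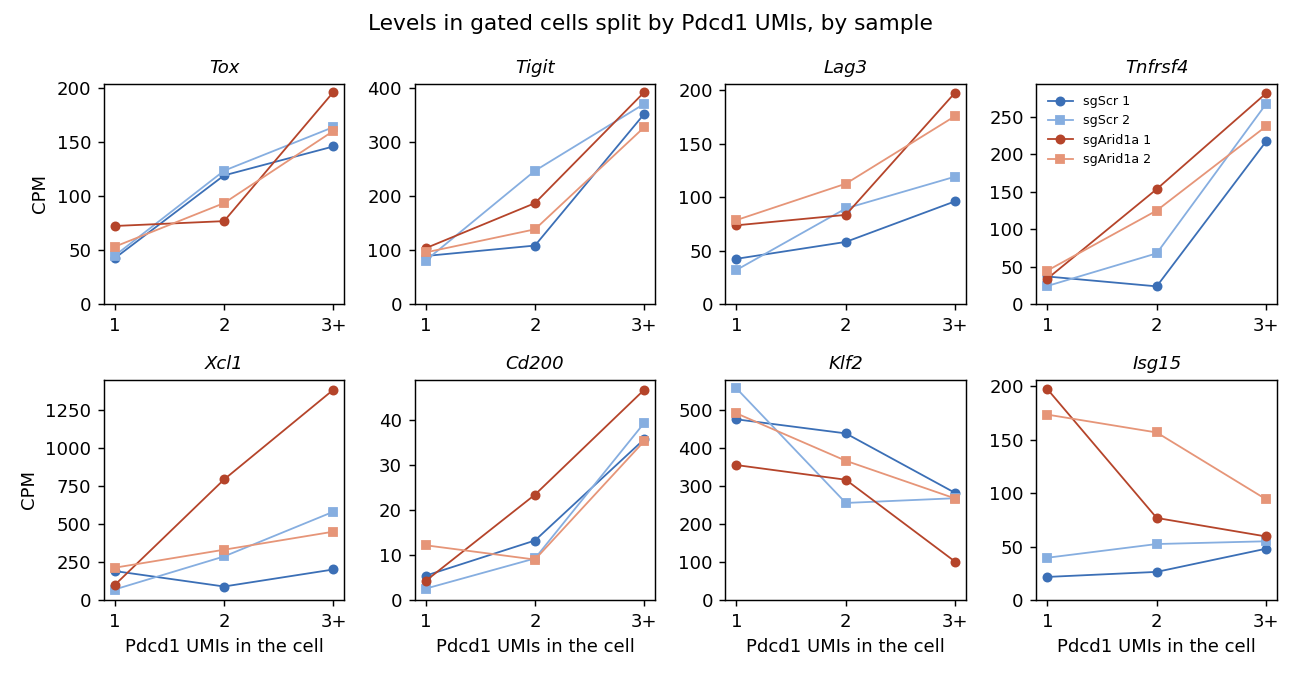
Level of 8 genes in CPM in gated cells with 1, 2, or 3 or more Pdcd1 UMIs; each line is 1 of the 4 samples. Tox, Tigit, Lag3 and Tnfrsf4 are highest at 3 or more UMIs in all samples, while Klf2 is highest at 1 UMI.

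T cell receptor segments are outside the rule. A Trbv segment was called in 339, 314, 322 and 774 gated cells. Trbv3 was carried by 9.73%, 11.5%, 13.4% and 15.0% of them, against 6.93%, 8.09%, 9.18% and 9.64% of Tcf7-only cells. In Pdcd1 Havcr2 cells it was carried by 0 of 148 cells in sgScr 1, which allows a share of up to 2.03%, and by 0.714%, 5.65% and 4.05% in the other samples. The gated cells were higher in 4 of 4 samples, by 3.93 ± 1.10 percentage points (SD, n = 4) and by 9.78 ± 1.48 percentage points. The exact two-sided paired permutation test gave p = 0.125 for each, the smallest value 4 pairs allow, and 0.319 after Benjamini-Hochberg adjustment over 46 relations. Many other segments also kept 1 direction in 4 of 4 samples. Among them were Trbv1 and Trbv13-2 against Tcf7-only cells, and Trbv12-2 and Trbv15 against Pdcd1 Havcr2 cells. Such a shared direction does not by itself set a segment apart.

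Trbv13-1 was carried by 5.90%, 6.37%, 12.1% and 8.79% of gated cells and 14.2%, 12.9%, 35.2% and 33.9% of Pdcd1 Havcr2 cells, lower in 4 of 4 samples (exact permutation p = 0.125, adjusted 0.319). Trbv20 was carried by 2.65%, 1.91%, 7.14% and 5.04% of gated cells, and by 1.35%, 0.714%, 26.1% and 28.9% of Pdcd1 Havcr2 cells, which is lower in the gate in the sgArid1a samples and higher in the sgScr samples (exact permutation p = 0.5, adjusted 0.639). Trbv19 was carried by 12.1%, 17.2%, 7.45% and 8.79% of gated cells and 18.2%, 21.4%, 0.870% and 1.01% of Pdcd1 Havcr2 cells, lower in the gate in sgScr and higher in sgArid1a (exact permutation p = 0.75, adjusted 0.802). Trbv16 was carried by a mean of 8.37% of gated cells and 14.9% of Pdcd1 Havcr2 cells, lower in 3 of 4 samples (exact permutation p = 0.375, adjusted 0.507). Among gated cells with both chains called, the pair Trav10 with Trbv13-1 was found in 3 of 105 cells (2.86%) and 9 of 337 cells (2.67%) of the sgArid1a samples, against 28 of 82 (34.1%) and 48 of 188 (25.5%) Pdcd1 Havcr2 cells. A shared pair of segments does not by itself make a clone, since the junction sequences were not used here.

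The main comparison of the study was then made within the gated cells, sgArid1a minus sgScr, over the 2 and 2 summed samples. Of 8863 genes tested, 287 were higher (3.24%) and 97 lower (1.09%), together 4.33%, and 51 and 16 of these changed at least 2-fold. At an unadjusted p under 0.05 there were 1615 genes, and the median of all genes was -0.016. These counts rested on the libraries kept: without sgScr sample 1 the test called 60 higher and 19 lower, without sgScr sample 2 123 and 40, without sgArid1a sample 1 413 and 207, and without sgArid1a sample 2 553 and 159. DESeq2 called 115 and 21 but gave no adjusted p for 7734 genes. Without cells holding 2 Trbv segments 119 and 40 were called, and all 371 tested genes of the main calls kept their sign. These sums share most of their cells with the main sums, so kept signs were likely in advance.

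Arid1a itself was at 92.8, 76.0, 82.5 and 83.0 CPM in gated cells, and the groups overlapped (0.04 ± 0.13, adjusted p = 0.92). As the labels do not place the guide in T cells, this level does not check them.

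Of 27 type I interferon-stimulated genes tested, 14 were higher in sgArid1a and 0 lower (median 0.64). Type I interferons signal through a complex of transcription factors that binds a short repeated motif in the promoters of these genes. Isg15, a ubiquitin-like modifier and one of the first genes induced, was at 31.4, 48.2, 122 and 134 CPM. Both sgArid1a samples lay above both sgScr samples (1.78 ± 0.15, adjusted p = 1.6e-10). Over the alternative settings its fold change stayed called between 1.05 and 2.36, except that DESeq2 gave no adjusted p.

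Ifi27l2a, a small interferon-induced membrane protein, was the most abundant, at 467, 479, 899 and 824 CPM (0.94 ± 0.10, adjusted p = 2.5e-08). Rtp4, a chaperone of receptors that limits interferon responses, was at 39.2, 39.6, 78.8 and 90.1 CPM (1.19 ± 0.15, adjusted p = 1.2e-06). Ifit1 and Ifit3, which bind foreign RNA or partner in doing so, were at 11.9, 19.3, 41.2 and 34.9 CPM and at 22.7, 15.5, 33.2 and 52.3 CPM (1.31 ± 0.22 and 1.32 ± 0.21). Bst2, tetherin, was at 111, 110, 178 and 208 CPM (0.89 ± 0.11). The groups did not overlap for any of these 5 genes, nor for 4434 of all 8863 genes tested. The other called members were Zbp1, Ly6a, Xaf1, Isg20, Irf7, Usp18, Rsad2 and Parp14, of which Ly6a has close relatives that can share reads. The number called ranged from 5 of 20 with cells thinned and 6 of 25 in cells with at least 2 Pdcd1 UMIs to 15 of 27, and DESeq2 gave an adjusted p to 4 members and called 3.

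The promoters of 4 called genes are shown because the interferon-response motif can be read in them. The windows come from RefSeq (build GRCm38.p6), with 40 bases on either side, and capitals mark the motif GAAANNGAAA or its reverse complement TTTCNNTTTC, overlapping copies joined. Isg15 is at chr4:156200835-156200936 on the minus strand, Bst2 at chr8:71537547-71537642 on the minus strand, Ifit3 at chr19:34583333-34583456 on the plus strand and Ifit1 at chr19:34640745-34640853 on the plus strand.
Isg15: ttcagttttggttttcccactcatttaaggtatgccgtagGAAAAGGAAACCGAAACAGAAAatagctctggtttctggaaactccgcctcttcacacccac
Bst2: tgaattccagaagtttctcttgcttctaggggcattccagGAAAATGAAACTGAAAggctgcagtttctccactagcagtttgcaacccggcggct
Ifit3: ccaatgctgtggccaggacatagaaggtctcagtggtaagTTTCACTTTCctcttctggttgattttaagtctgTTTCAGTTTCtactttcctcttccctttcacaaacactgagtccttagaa
Ifit1: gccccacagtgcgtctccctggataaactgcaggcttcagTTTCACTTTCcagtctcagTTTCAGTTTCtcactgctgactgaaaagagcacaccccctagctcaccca
Isg15 held 3 overlapping copies, the first 78 bases before the transcription start, and Bst2, Ifit3 and Ifit1 held 2 copies each, the first 130, 156 and 104 bases before it. Both strands were searched in the 250 bases before each start. The motif was found in 978 of 32851 promoters (2.98%), in 10 of the 22 listed interferon genes present in the table (45.5%), and in 5 of the 8 that were called (62.5%), the fifth being Rsad2. Xaf1, Isg20 and Irf7 did not hold these letters in this window. A match describes the sequence and is not evidence that a factor was bound in these cells.

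Interferon-gamma response genes moved in the same direction, with 8 of 22 higher and 0 lower (median 0.39). Igtp, an interferon-induced GTPase, was at 56.7, 61.1, 88.6 and 99.6 CPM (0.77 ± 0.13). Gbp6, a guanylate-binding protein with near-identical relatives, was at 37.6, 23.6, 54.2 and 64.1 CPM (1.04 ± 0.18). Of 13 genes for the STING pathway and interferon signalling components, 0 were called in either direction with edgeR (median -0.12). An unadjusted p under 0.05 in edgeR was found for 4 of them, beside 1615 of all 8863 genes tested. DESeq2 called 0 of the 3 it adjusted. The nearest was Irf9, at 53.6, 36.4, 59.1 and 63.9 CPM (0.53 ± 0.16, adjusted p = 0.052). It passed without sgScr sample 1 (0.84, adjusted p = 0.035) and without sgArid1a sample 1 (0.55, adjusted p = 0.0052). Tmem173, which encodes STING, was at 93.8, 94.3, 99.1 and 109 CPM (0.23 ± 0.12, adjusted p = 0.32).

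**Figure D4:**
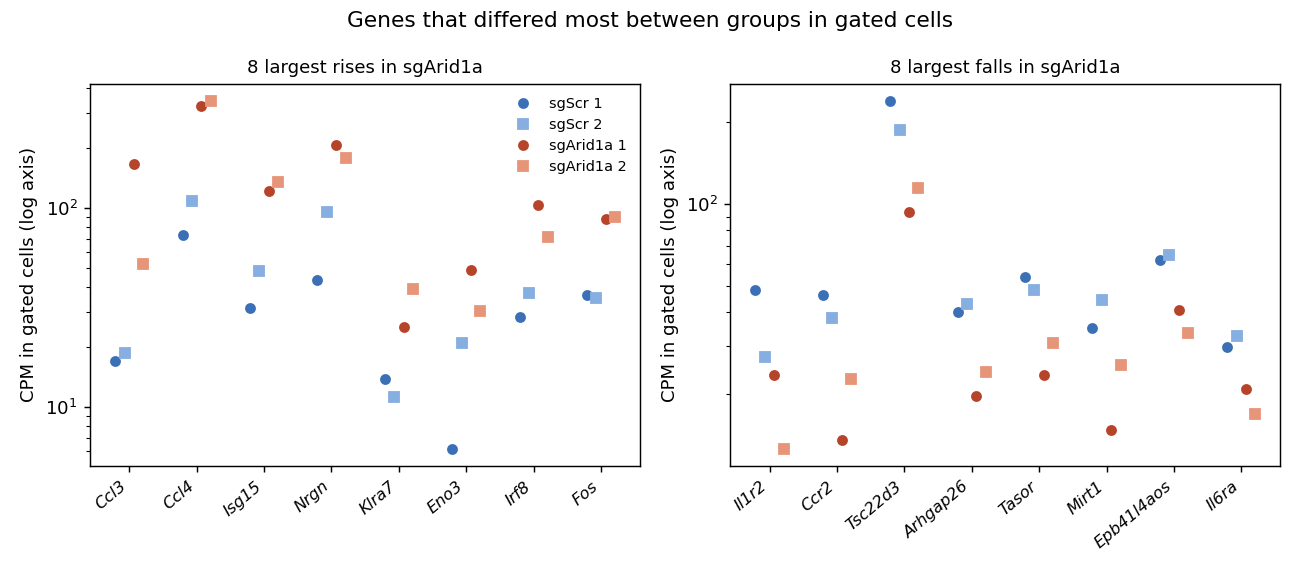
Level in CPM, on a log axis, of the 8 largest rises (left) and 8 largest falls (right) by the naming rule in the gated cells of the 2 sgScr and 2 sgArid1a samples; each point is 1 sample. The groups do not overlap for any gene shown, since the rule requires it, and the sgArid1a samples of Ccl3 lie at 166 and 52.1 CPM.

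Chemokines and cytokines rose for 6 of 12 members and fell for none (median 0.90). Ccl4 was at 73.2, 109, 324 and 345 CPM (1.96 ± 0.12, adjusted p = 8.0e-14). Ccl3 was at 17.0, 18.7, 166 and 52.1 CPM (2.48 ± 0.34, adjusted p = 7.1e-06), with the sgArid1a samples far apart from each other and both above sgScr. With cells thinned Ccl3 was not called (1.03, adjusted p = 0.11). Xcl1 was at 175, 317, 717 and 342 CPM (1.16 ± 0.20, adjusted p = 2.3e-04), and DESeq2 did not call it (adjusted p = 0.23). Ifng was at 16.5, 17.1, 52.3 and 32.2 CPM (1.27 ± 0.23, adjusted p = 6.4e-04), and was lost with cells thinned (1.25, adjusted p = 0.16). Of the early genes induced by T cell receptor signals 3 of 13 rose and 0 fell (median 0.23). Among them Tnfrsf4 was at 94.3, 131, 151 and 147 CPM (0.47, adjusted p = 0.021), a call lost without sgScr sample 1 (0.26, adjusted p = 0.65).

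Among progenitor exhausted genes 2 of 14 rose and 1 fell (median -0.13). Il7r fell, from 831 and 770 CPM to 490 and 495 CPM (-0.63 ± 0.09, adjusted p = 2.9e-05). Xcl1, listed with both groups, and Id3 rose. Id3 was at 70.6, 68.5, 84.9 and 97.2 CPM (0.48 ± 0.13, adjusted p = 0.025), and the call was lost without sgScr sample 1 (0.51, adjusted p = 0.26), without sgScr sample 2 (0.45, adjusted p = 0.26) and without sgArid1a sample 2 (0.41, adjusted p = 0.10). Slamf6 did not pass the test (-0.21 ± 0.11, adjusted p = 0.32), nor did Lef1 (-0.31 ± 0.11, adjusted p = 0.099). Of the naive and homing genes 1 of 11 rose and 4 fell (median -0.34).

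Of the inhibitory receptor and exhaustion genes 3 of 13 rose and 1, Id2, fell (median 0.19). Among the 3 rises only Lag3 encodes an inhibitory receptor. Tnfrsf9, the costimulatory receptor 4-1BB that marks recent receptor signals, was at 50.5, 63.7, 156 and 120 CPM (1.31 ± 0.14, adjusted p = 1.0e-07). Lag3 was at 63.4, 77.7, 123 and 129 CPM (0.92 ± 0.13, adjusted p = 8.7e-06). Both were lost with cells thinned, at 0.35 (adjusted p = 0.63) and 0.60 (adjusted p = 0.24). The third rise was Rgs16 (0.71 ± 0.21, adjusted p = 0.041). Tox (0.26 ± 0.12, adjusted p = 0.25) and Tigit (0.17 ± 0.11, adjusted p = 0.46) did not pass. Of 11 lineage transcription factors 0 were called with edgeR, and DESeq2 called 0 of the 4 it adjusted. An unadjusted p under 0.05 in edgeR was found for 4, beside 1615 of all 8863 genes tested.

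Cytotoxic genes rose for 3 of 14 and fell for 1 (median 0.19). Gzmb was at 32.0, 70.2, 95.4 and 118 CPM (1.17 ± 0.17, adjusted p = 2.9e-05), and Gzmk fell, at 260, 204, 150 and 155 CPM (-0.53 ± 0.11, adjusted p = 0.0033). The Gzmk call was lost without sgScr sample 1 (-0.34, adjusted p = 0.42), without cells holding 2 Trbv segments (-0.38, adjusted p = 0.087) and with cells thinned (-0.46, adjusted p = 0.20). Quiescence genes fell for 4 of 10 members and rose for 1 (median -0.16). Tsc22d3, the glucocorticoid-induced leucine zipper, was at 240, 187, 93.5 and 114 CPM (-0.94 ± 0.12, adjusted p = 1.9e-06). Txnip, an inhibitor of thioredoxin and of glucose uptake, was at 472, 400, 261 and 262 CPM (-0.66 ± 0.10, adjusted p = 4.5e-05), and missed the threshold without sgScr sample 1 (-0.53, adjusted p = 0.052).

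Genes that tissue dissociation can also induce rose with the group: 10 of 18 heat shock and dissociation genes were higher and 0 lower (median 0.45). Fos, an immediate-early transcription factor, was at 36.6, 35.3, 88.0 and 90.1 CPM (1.38 ± 0.15, adjusted p = 6.3e-08), and Jun was at 77.8, 79.3, 134 and 136 CPM (0.85 ± 0.12). Hspa1b, a heat shock chaperone with the near-identical copy Hspa1a, was at 9.28, 6.96, 24.6 and 30.2 CPM (1.86 ± 0.26). Their part in the other changes was not tested. S phase genes rose for 4 of 16 and fell for none (median 0.37), and glycolysis genes for 4 of 15 with none lower (median 0.13). Of 12 chemokine receptors and integrins 2 fell: Itga4, the alpha chain of the integrin VLA-4, was at 421, 405, 250 and 286 CPM (-0.54 ± 0.10, adjusted p = 5.2e-04), and Ccr2, a receptor for entry into inflamed tissue, was at 46.4, 38.0, 13.5 and 22.7 CPM (-1.01 ± 0.20, adjusted p = 0.0015). Without sgScr sample 1 neither was called, at -0.51 (adjusted p = 0.069) and -0.86 (adjusted p = 0.067).

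Among other large changes, Nrgn rose, at 43.3, 95.3, 208 and 178 CPM (1.54 ± 0.17, adjusted p = 7.9e-08). Irf8, a transcription factor induced by receptor signals, also rose, at 28.3, 37.5, 103 and 71.8 CPM (1.41 ± 0.18). Irf8 and, further below, Il6ra were already counted in their lists above. Eno3, an enolase, was at 6.18, 20.9, 48.6 and 30.2 CPM (1.49), and was not called without sgScr sample 1 (0.88, adjusted p = 0.11). Klra7, a Ly49 receptor with many close relatives, was at 13.9, 11.2, 25.2 and 39.1 CPM (1.52 ± 0.24). Il1r2, the decoy receptor for interleukin-1, fell at 48.4, 27.3, 23.4 and 12.6 CPM (-1.21 ± 0.25, adjusted p = 0.0023). The Il1r2 call was lost without sgScr sample 1 (-0.72, adjusted p = 0.29) and without sgArid1a sample 2 (-0.58, adjusted p = 0.16). The other large falls, Arhgap26, Tasor, Mirt1, Epb41l4aos and Il6ra, lay between -0.80 and -0.73, and each lost its call without 1 sample or more. Arhgap26 was not called without sgScr sample 1 (adjusted p = 0.060) or sgScr sample 2 (adjusted p = 0.083), Tasor without sgScr sample 1 (adjusted p = 0.16), Mirt1 without sgScr sample 2 (adjusted p = 0.26) and Epb41l4aos without sgArid1a sample 2 (adjusted p = 0.088). Il6ra was not called without sgScr sample 1 (adjusted p = 0.17), sgScr sample 2 (adjusted p = 0.23) or sgArid1a sample 2 (adjusted p = 0.37).

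The group effect in gated cells was then compared with that in the neighbouring classes by an interaction term, gated minus other. Against Tcf7-only cells 25 of 10965 genes had a more positive effect in gated cells (0.228%) and 76 a more negative one (0.693%). Against Pdcd1 Havcr2 cells 112 of 9322 genes were more positive (1.2%) and 20 more negative (0.215%), together 1.42%.

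For 7 of 27 interferon-stimulated genes the group effect was larger in gated than in Pdcd1 Havcr2 cells, and for 20 the difference was not called. Rsad2, among the 7, did not pass the count filter within Pdcd1 Havcr2 cells, so its group effect there was not tested. Isg15 was at 29.5, 28.7, 104 and 103 CPM in Tcf7-only cells, a group effect of 1.89 ± 0.07. It was at 30.0, 61.6, 35.8 and 45.1 CPM in Pdcd1 Havcr2 cells, where the groups overlapped (-0.05 ± 0.24, adjusted p = 0.94). The interaction with Pdcd1 Havcr2 cells was 1.84 ± 0.22 (adjusted p = 6.4e-06), and that with Tcf7-only cells was -0.07 ± 0.16 (adjusted p = 0.96). The first was not called with cells thinned to 2000 UMIs (0.82, adjusted p = 0.82). Over the list, 7 of 27 interactions with Pdcd1 Havcr2 cells were positive calls and 0 negative (median 0.61, beside 0.046 over all genes): Isg15, Ifi27l2a, Ifit3, Irf7, Usp18, Zbp1 and Rsad2. The count was 1 of 21 with cells thinned, 2 of 27 without cells that hold 2 Trbv segments and 2 of 28 without sgArid1a sample 2. It was 5 without each of the other samples in turn, and DESeq2 called 2 of the 12 to which it gave an adjusted p. With Tcf7-only cells 0 of 29 were positive and 1, Ly6a, was negative.

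Within single classes, the list counted 25 of 29 genes higher in Tcf7-only cells (14.5% of all genes were higher there) and 2 of 25 higher with 1 lower in Pdcd1 Havcr2 cells (3.06% higher and 2.55% lower). Class sums differ in size, and with it in the power of each test. Within the gate itself, Isg15 differed with the number of Pdcd1 UMIs: at 1, 2, and 3 or more UMIs it was at 197, 76.9 and 59.6 CPM in sgArid1a 1 and at 173, 157 and 94.3 CPM in sgArid1a 2, against 21.8, 26.5 and 48.1 CPM in sgScr 1 and 39.7, 52.5 and 55.1 CPM in sgScr 2. Both sgArid1a samples had their highest level at 1 Pdcd1 UMI and both sgScr samples at 3 or more, and the difference was not tested.

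**Figure D5:**
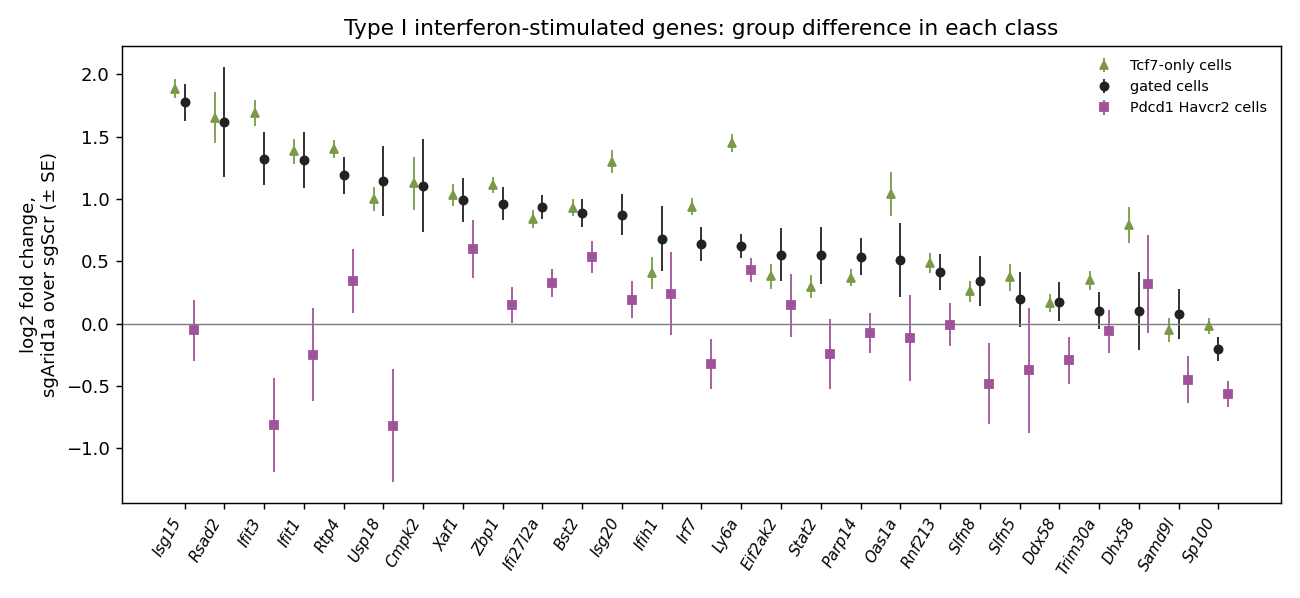
Log2 fold change, sgArid1a over sgScr, of type I interferon-stimulated genes in Tcf7-only cells, gated cells and Pdcd1 Havcr2 cells, with bars of 1 standard error. Isg15 is at 1.89 and 1.78 in the first 2 classes and at -0.05 in Pdcd1 Havcr2 cells.

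Of 15 inhibitory receptor and exhaustion genes, 5 had a group effect more positive in gated than in Pdcd1 Havcr2 cells (Lag3, Tox, Tnfrsf9, Cd160 and Tigit) and 0 a more negative one (median 0.48), with 0 of 13 called once cells were thinned. Lag3 rose by 0.92 ± 0.13 in gated cells and had an effect of -0.10 in Pdcd1 Havcr2 cells (interaction 1.03 ± 0.12, adjusted p = 4.7e-06). Eomes, from the list of lineage transcription factors, was near equal between groups in gated cells (0.04 ± 0.14) and lower in sgArid1a in Pdcd1 Havcr2 cells (-1.55), an interaction of 1.60 ± 0.18 (adjusted p = 1.3e-06). Both were lost with cells thinned, at 0.92 (adjusted p = 0.22) and 1.01 (adjusted p = 0.72). Against Tcf7-only cells, Cxcr3 had an interaction of -1.01 ± 0.10 (adjusted p = 7.1e-10), having been at 90.5, 95.3, 160 and 170 CPM in Tcf7-only cells and at 261, 233, 185 and 234 CPM in gated cells. Dapl1 rose in gated cells (0.61, not called without sgScr sample 1, at 0.43 with adjusted p = 0.26) and was lower in sgArid1a in Tcf7-only cells (-0.38), an interaction of 1.0 ± 0.11 (adjusted p = 2.9e-08).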

How the data were processed

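Live CD45+ CD3+ CD8+ cells sorted from B16F10 tumours were profiled in 4 samples, 2 labelled sgScr and 2 labelled sgArid1a. The authors deposited UMI counts per gene and barcode for 32285 genes, made with Cell Ranger 6.0.1 per the file headers; the submitters' processing notes name Cell Ranger 3.0.2, Seurat and build mm10. The annotation release and any doublet removal are not given in the sources used here. The deposited barcode and gene lists were read in the matrix order.

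Barcodes under 500 genes or over 10% mitochondrial UMIs were dropped. No doublet caller was run; cells with 2 Trbv segments were removed as an alternative. Counts were summed per sample and class. edgeR 4.0.16 (R 4.3.3) was run with TMM, filterByExpr and the quasi-likelihood test, with sample as a block between classes, and Benjamini-Hochberg adjustment at 0.05 over all genes tested. Standard errors are the log2 fold change divided by the square root of the F statistic. A filter on low counts keeps genes through either group, so list counts cover only tested members. Alternatives were DESeq2 1.42.0, RLE size factors, no count filter, thinning to 2000 UMIs (3000 for shares), stricter gates, removal of Trbv13-1 and Trbv20 cells, leaving out each sample, and the replicate number as a block. On simulated counts of 8699 genes, the group test recovered 30.0% of 1.5-fold and 69.5% of 2-fold changes.

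The members and the 15 gene and 8 marker lists (283 of 284 symbols matched) were chosen with earlier results of these data known. Named genes are, for the group effect, called genes of at least 20 CPM whose groups do not overlap, the 8 largest rises and falls, without receptor, immunoglobulin, predicted, pseudogene, mitochondrial, ribosomal and rule genes; the 3 smallest p of each gene list; and 16 fixed genes. Each class comparison takes the 6 largest rises and falls with the fixed genes, and each interaction the 4 smallest p per direction. Other members are named with their values as description. The receptor sequencing libraries were not used here. A few items are not reported here.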

Additional observations from a re-analysis of the deposited data

Results flagged for a closer look

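For 8 genes the group effect, sgArid1a minus sgScr, differed between gated cells and Tcf7-only cells by the interaction term of edgeR's quasi-likelihood test, and these are log2 differences of gated minus Tcf7-only. More positive in gated cells were Dapl1 at 1.0, Ccl1 at 2.28, Ccl3 at 1.72 and Rgcc at 0.98. The Ccl1 value came from effects of 0.64 in gated cells (adjusted p = 0.32, not called) and -1.74 in Tcf7-only cells. Ccl1 was at 51.0, 20.9, 103 and 27.4 CPM in gated cells, where the groups overlapped. In Tcf7-only cells it was low, at 3.55, 1.89, 1.40 and 0.528 CPM. The Ccl1 interaction was not called without cells that hold 2 Trbv segments (0.63, adjusted p = 0.81). With cells thinned to 2000 UMIs the Ccl1 and Ccl3 values turned to -1.61 and -0.49 (adjusted p = 0.51 and 0.92). Rgcc, a cell cycle regulator that responds to complement, was not called without sgArid1a sample 2 (0.61, adjusted p = 0.35). More negative in gated cells were Ccl5 at -0.89, Ly6c2 at -0.67, S100a6 at -0.77 and Ly6a at -0.79. Their group effects were 0.64, 1.11, 0.93 and 1.45 in Tcf7-only cells, against -0.27, 0.42, 0.13 and 0.63 in gated cells.

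Another 8 differed between gated cells and Pdcd1 Havcr2 cells. More positive in gated cells were Ccl5 at 0.42, Eomes at 1.60, Cd7 at 1.33 and Lag3 at 1.03. Their effects in Pdcd1 Havcr2 cells were -0.68, -1.55, -1.49 and -0.10. More negative were S100a6 at -0.44, Klrc1 at -0.80, Klrk1 at -0.72 and Jaml at -1.33. Klrc1 and Klrk1 encode NKG2 receptors, and with Jaml, an adhesion receptor, they had effects of 0.84, 0.86 and 1.73 in Pdcd1 Havcr2 cells. Klrc1 (-0.61, adjusted p = 0.051) and Jaml (-1.05, adjusted p = 0.16) were not called without sgScr sample 1, and Jaml was not called without sgArid1a sample 2 (-1.15, adjusted p = 0.11). With cells thinned to 2000 UMIs, 0 of these 8 were called. Causes were not tested.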

How the results depend on the processing

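All 384 genes called between groups in gated cells kept their direction under DESeq2, RLE size factors, no count filter and the replicate block, and 320 of 324 did with cells thinned to 2000 UMIs. These settings reuse the same counts or a part of them, so kept directions were likely in advance. Against the reported 287 higher and 97 lower, the counts were 115 and 21 with DESeq2, which gave no adjusted p for 191 of the 384, 34 and 12 with thinned cells, 119 and 40 without cells with 2 Trbv segments, 139 and 56 with at least 2 Tcf7 UMIs and no cycling UMI, and 58 and 24 with at least 2 Pdcd1 UMIs, a setting chosen after seeing the data. Without Trbv13-1 and Trbv20 cells 58 were lower. Leaving out 1 sample gave 60 to 553 higher and 19 to 207 lower; the lone sample left is assumed to vary like the others. With the replicate block 328 were higher and 126 lower. The deviations of same-numbered samples from their group means correlated over genes at -0.026. With 2 samples per group both pairs give this same value by construction, so it cannot decide whether the numbers pair the samples.

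Against Tcf7-only cells, thinning left 599 higher and 572 lower, and DESeq2 907 lower. Against Pdcd1 Havcr2 cells DESeq2 gave 1048 higher and 1263 lower, and thinning 720 and 714. The interaction with Tcf7-only cells had 6 more positive and 33 more negative genes with DESeq2, 40 more positive without a count filter, 15 without Trbv13-1 and Trbv20 cells, and 30 more negative with thinning. The interaction with Pdcd1 Havcr2 cells had 22 and 2 with DESeq2, 13 and 6 with thinning, 65 more positive without Trbv13-1 and Trbv20 cells and 32 more negative without a count filter. Leaving out 1 sample gave 61 to 116 more positive and 13 to 35 more negative genes.

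Gate shares moved with thinning to 2000 and 3000 UMIs, to 2.70% and 3.55% in sgScr 1, 2.95% and 3.57% in sgScr 2, 2.62% in sgArid1a 1 at 2000, and 3.50% and 4.86% in sgArid1a 2. Without cells with 2 Trbv segments they were 3.76% and 6.20% in the sgArid1a samples. With thinned cells the sign turned for the group effect of Tnfrsf4 (-0.011), the interactions of Ccl1 (-1.61) and Ccl3 (-0.49) with Tcf7-only cells and that of Tigit (-0.22) with Pdcd1 Havcr2 cells. The causes were not tested. Of 759 values of 62 named genes under alternatives of the group effect, 127 lost and 7 gained the call. Depth limits the gate, since a cell with few UMIs can miss Tcf7 or Pdcd1.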
